A study of Mus musculus with 25 samples.

Results

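Neurotrophins and their receptors were followed through every probe set that the annotation of the Affymetrix Mouse430_2 array names for Bdnf, Ntf3, Ntrk2, Ntrk3, Ngfr or Sort1 alone. The rule found 24 of 45101 probe sets on the array: 2 for Bdnf, 8 for Ntrk2, 8 for Ntrk3, 3 for Ngfr and 3 for Sort1. No probe set was named for Ntf3, which is not analysed here, so the 24 probe sets cover 5 of 6 genes. The tissue was the CA1 region of the hippocampus of 25 adult females of the inbred Balb c/J strain, with 1 array per mouse. As pups, the 11 handled mice spent 15 min away from the mother each morning on postnatal days 1 to 14, in a clean cage, and the 14 non-handled mice were not separated. All mice were tested for behavior at 8 weeks of age and CA1 was dissected 2 weeks later. RNA came from RNA/DNA columns for 7 handled and 10 non-handled mice and from Trizol for 4 handled and 4 non-handled mice. Handling was given by litter, with 5 handled and 6 non-handled litters. Since the sources used here do not place single mice in litters, all p-values treat mice as independent. Mice of the same litter may be alike, so these p-values may be too small.

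Neurotrophins are secreted growth factors that neurons use for survival, growth and synaptic change. Bdnf encodes brain-derived neurotrophic factor, which acts through the receptor tyrosine kinase TrkB (Ntrk2), and Ntf3 encodes neurotrophin-3, the main ligand of TrkC (Ntrk3). Both receptors are also made in truncated forms that lack the kinase, and truncated TrkB is abundant in astrocytes. Ngfr encodes p75, a receptor for all neurotrophins and for their uncleaved precursors, and Sort1 encodes sortilin, which sorts pro-BDNF within the cell and pairs with p75 at the surface. In CA1, TrkB signaling is known for its part in long-term potentiation. Which probe set reads the full-length and which a truncated form of Ntrk2 or Ntrk3 is not given in the sources used here, so each probe set is reported by its own identifier. The levels of different probe sets are not compared, because probes differ in how strongly they bind.

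The values were MAS 5.0 signal, a linear intensity in which each array is scaled by a single factor. The mean signal per array lay between 737 and 910 and the median between 79.6 and 162.8. By correlation no array stood apart, with values between arrays of 0.806 to 0.919. In place of detection calls, the signal of 44 probe sets named for olfactory receptor genes, not usually expressed in CA1, gave the range of nonspecific signal: their 95th percentile was 64.4 in the lowest array, 115.9 in the median array and 189 in the highest. Of the 24 probe sets, 14 exceeded the 95th percentile of their own array in all 25 mice, 6 did so in some mice and 4 in none. All 5 measured markers of CA1 pyramidal neurons had medians above this range.

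**Figure D1:**
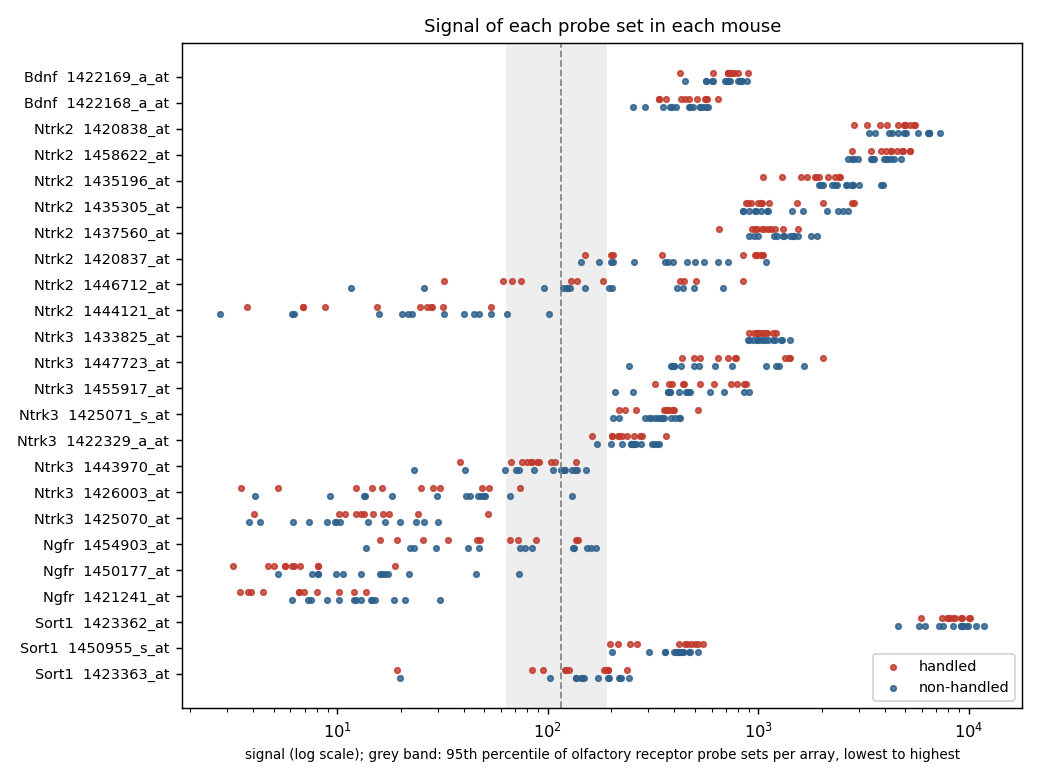
Signal of the 24 probe sets in each mouse (log axis), handled mice in red and non-handled in blue. The dashed line is the median and the grey band the lowest to highest 95th percentile of olfactory receptor probe sets per array (64.4 to 189); Ngfr lies in or below the band, while Sort1 1423362_at lies far above it in every mouse.

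Handling was associated with a change at Ntrk2, in opposite directions at 2 of its 8 probe sets, and at no probe set of Bdnf, Ntrk3, Ngfr or Sort1. Ntrk2 1435196_at fell and Ntrk2 1420837_at rose. The comparison asks whether the neurotrophin genes differ in adulthood between mice that were or were not handled as pups. With limma on log2 signal, handling and extraction as terms, 2 of 24 probe sets (8.33%) passed an adjusted p of 0.05 over 45037 probe sets, where 11.5% of all probe sets did, 1614 higher and 3571 lower in handled mice. The share of called probe sets was thus no larger among the neurotrophin genes than on the whole array. At an unadjusted p under 0.05, 8 of 24 (33.3%) passed, where 27.9% of all probe sets did. They were 5 of Ntrk2, 2 of Ngfr and 1 of Ntrk3. The median log2 difference, handled minus non-handled, was -0.07 over the 24 probe sets and -0.15 over all probe sets. That overall shift was -0.02 in the upper 50% of mean signal and -0.42 in the lower 50%, and it became 0.02 over all probe sets after quantile normalization and 0.03 when each array was set to the same mean and SD. The called probe sets of the whole array were then 1319 higher and 1595 lower, and 1726 higher and 1850 lower.

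**Figure D2:**
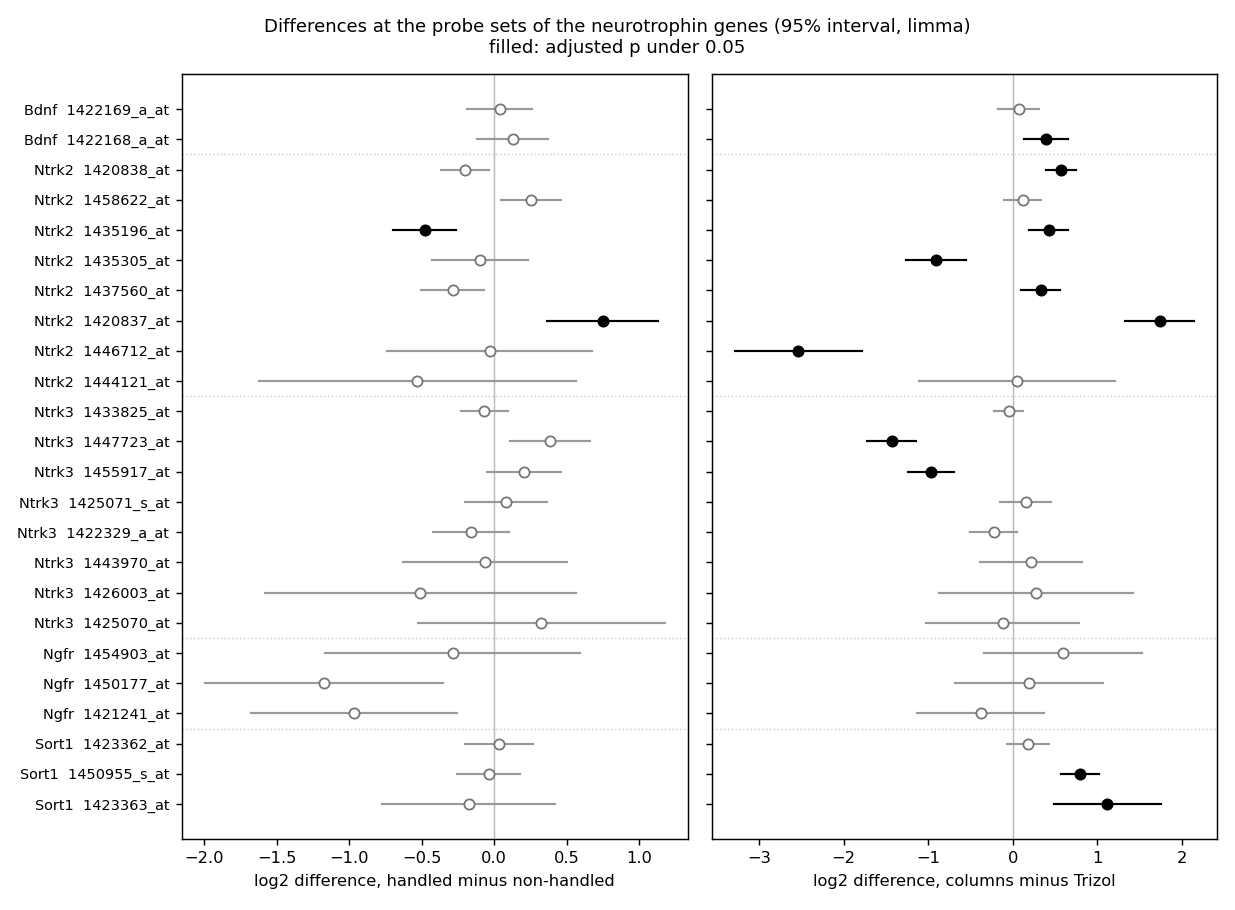
Log2 difference of each probe set with its 95% interval from limma, handled minus non-handled on the left and columns minus Trizol on the right, on different scales. Filled points passed an adjusted p of 0.05: 2 probe sets for handling, both of Ntrk2, and 11 for extraction.

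Ntrk2 1435196_at was lower in handled mice under both extraction methods. With columns, its signal was 1595 in the lowest, 2155 in the median and 2455 in the highest handled mouse, against 2025, 2798 and 3898 in non-handled mice. With Trizol, the handled mice had 1055, 1303, 1873 and 1932 and the non-handled mice 1946, 1979, 2312 and 2353. The groups overlapped with columns and did not overlap with Trizol. Handled mice had a mean of 1879 ± 450 (SD, n = 11), non-handled mice one of 2662 ± 612 (SD, n = 14). The log2 difference was -0.48 (SE 0.106, limma adjusted p = 0.0038), or 0.717-fold, and a two-sided exact permutation of handling within extraction gave p = 0.000295. It was -0.46 with columns alone (limma adjusted p = 0.0167) and -0.52 with Trizol alone, where limma's adjusted p was 0.755. Leaving out each mouse in turn gave -0.51 to -0.43, with limma adjusted p-values up to 0.0104.

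Ntrk2 1420837_at was higher in handled mice, and the rise was carried by the mice with columns. There the signal of handled mice was 848 in the lowest, 988 in the median and 1058 in the highest mouse, a narrow range, while non-handled mice had 200, 480 and 1091. A single non-handled mouse, NH156, with 1091, lay among or above the handled mice, and the next non-handled mouse had 719. With Trizol, the handled mice had 150, 199, 205 and 350 and the non-handled mice 143.7, 176, 204 and 256, so that the groups overlapped throughout. These Trizol values lie near the nonspecific range, whose 95th percentile was 64.4 to 189 across arrays, which limits what they can show. The probe set exceeded the 95th percentile of its own array in 24 of 25 mice and the 99th in 20. The log2 difference was 0.75 (SE 0.188, limma adjusted p = 0.00965), or 1.68-fold, with a two-sided exact permutation p of 0.00171. It was 1.03 with columns (limma adjusted p = 0.0028) and 0.18 with Trizol (limma adjusted p = 0.933). The interaction of handling with extraction was 0.85 (SE 0.378, limma p = 0.031, adjusted p = 0.623), so that a difference between the methods did not pass the adjusted test. Without the extraction term the difference was 0.61 and limma's adjusted p was 0.344. The difference was 0.65 to 0.83 with each mouse left out, with limma adjusted p-values up to 0.02.

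**Figure D3:**
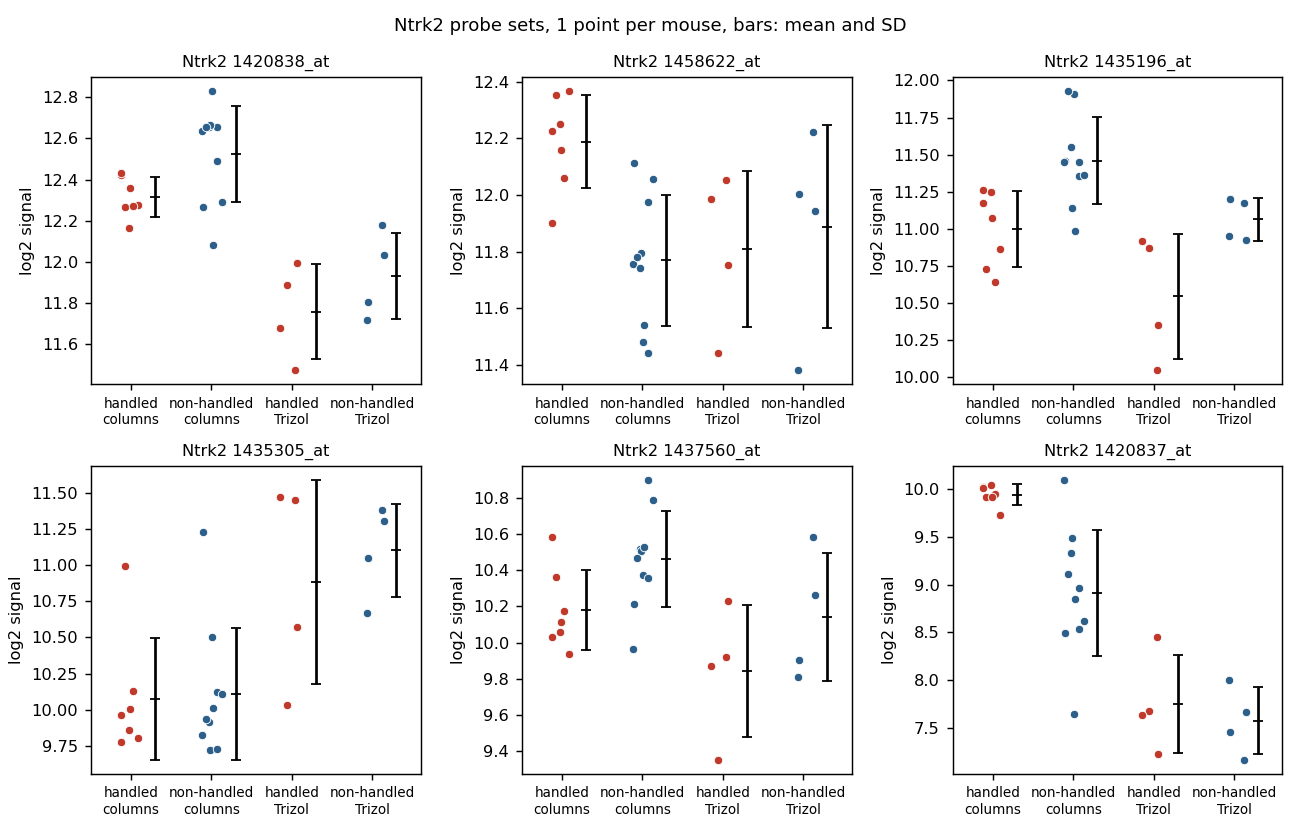
Log2 signal of the 6 Ntrk2 probe sets with the highest mean log2 signal, 1 point per mouse in the 4 groups of handling and extraction, bars for the group mean and SD (n = 7, 10, 4 and 4 from left to right; axes differ between panels and do not start at 0). For 1435196_at both handled groups have lower means than their non-handled groups, and for 1420837_at the handled mice with columns lie together near the top.

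The 2 called probe sets were also set against each other within each array. The log2 ratio of 1420837_at over 1435196_at, a pair chosen after its values were seen, was -1.25 to -0.69 in handled mice with columns, with a median of -1.15. In non-handled mice with columns it was -4.27 to -1.36, with a median of -2.57, so these groups did not overlap. With Trizol it was -3.28 to -1.59 in handled and -4.01 to -2.95 in non-handled mice, which overlap. The ratio was higher by 1.23 in handled mice within extraction, a description with no test, since the pair was picked for its opposite calls.

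The other 6 Ntrk2 probe sets did not pass the adjusted test. Ntrk2 1420838_at, which the annotation names through the same accession as 1420837_at, went the other way: handled mice had a mean of 4518 ± 903 (SD, n = 11) and non-handled mice one of 5380 ± 1244 (SD, n = 14). Its log2 difference was -0.20 (95% interval -0.36 to -0.03, limma adjusted p = 0.104), and it passed when arrays were set to the same mean and SD, at -0.34 (limma adjusted p = 0.019). This probe set ordered the 4 groups as non-handled with columns (log2 12.52 ± 0.234, SD, n = 10), handled with columns (12.31 ± 0.0969, SD, n = 7), non-handled with Trizol (11.93 ± 0.209, SD, n = 4) and handled with Trizol (11.76 ± 0.231, SD, n = 4). Handled and non-handled neighbours in this order did not differ by limma within either method (adjusted p = 0.152 and 0.85), and the middle neighbours, which differ in both handling and extraction, lay further apart than their SDs. Ntrk2 1458622_at had a log2 difference of 0.26 (95% interval 0.05 to 0.46, limma adjusted p = 0.0929). With columns alone it was 0.42 (limma adjusted p = 0.00811), the handled mice at 3828 to 5282 and the non-handled at 2784 to 4431. With Trizol alone it was -0.08, the handled mice at 2785 to 4247 and the non-handled at 2666 to 4779. It also passed without H130 or without NH147, at 0.31 each. Ntrk2 1437560_at had -0.29 (limma adjusted p = 0.0738) and passed without H117, without H126 or without NH156, at -0.33, -0.32 and -0.32, and with RNA quality covariates, at -0.38. Ntrk2 1435305_at, 1446712_at and 1444121_at had differences of -0.09, -0.03 and -0.53 with intervals that span 0, and 1444121_at was above the nonspecific range in no mouse. The sign of 1446712_at turned under both scalings, to 0.20.

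Astrocytes and interneurons are cell types whose share of the tissue could differ, and in these bulk samples fewer cells of a type and less RNA per cell cannot be told apart. Of 8 astrocyte markers 1 was called, Aqp4, the water channel, at 0.32 (SE 0.0899, limma adjusted p = 0.0195), with 1 of its 3 probe sets called. With columns, the summed signal of the 8 astrocyte markers was 59287 to 68386 in handled and 56842 to 85615 in non-handled mice. With Trizol it was 47470 to 59347 in handled and 42201 to 51144 in non-handled mice, and the groups overlapped under both methods. Of 7 interneuron markers 3 were called: Gad2 and Gad1, the GABA-synthesizing enzymes, at 0.86 and 0.30, and Pvalb, the calcium buffer of fast-spiking cells, at -0.32 (limma adjusted p up to 0.0466). The other 4, Slc32a1, Sst, Vip and Npy, were not called, at 0.11, -0.11, -0.04 and -0.10, and the list median was -0.04. Slc32a1 had 2 of 4 probe sets called lower, Gad2 had 2 of 2 called higher and Gad1 1 of 2. The summed interneuron markers were 16864 to 21026 in handled and 12334 to 17773 in non-handled mice with columns, and 13905 to 20405 against 12703 to 15556 with Trizol. Gad1 and Gad2 have the highest signals in this sum, so it mostly repeats their differences. Of the markers of CA1 pyramidal neurons, oligodendrocytes and microglia limma called 0 of 5, 0 of 7 and 0 of 7, with 1, 1 and 2 at an unadjusted p under 0.05. Of all genes 4.47% were called higher and 9.7% lower, and 31.6% had an unadjusted p under 0.05. In lists this short, 0 or 1 called is close to that share. In the other lists, Cldn5, an endothelial tight junction protein and 1 of 6 endothelial and mural markers, was called at -0.49 (limma adjusted p = 0.00549), Folr1, a folate receptor of the choroid plexus and 1 of 5 markers, at -0.86 (limma adjusted p = 0.0232), and Rgs14, a marker of CA2 and 1 of 4, at -0.29 (limma adjusted p = 0.0299). All 3 were lower in handled mice under both extraction methods. Cldn5 and Rgs14 exceeded the nonspecific 95th percentile of the array in all 25 mice, but Folr1 did so in only 7. The 44 olfactory receptor probe sets, also dim, had a median handling difference of -0.61. The part of the nonspecific signal in the Folr1 difference was not tested. The 3' to 5' log2 ratio of Gapdh, a measure of RNA quality, differed by 0.07 between handled and non-handled mice within extraction (two-sided exact permutation p = 0.332) and that of Actb by -0.14 (p = 0.374). With both ratios as covariates, Ntrk2 1435196_at was at -0.40 (limma adjusted p = 0.0214) and 1420837_at at 0.69 (limma adjusted p = 0.014). The part of the cell type markers in the Ntrk2 differences was not tested.

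Bdnf, the ligand of TrkB, showed no difference that passed the test at either probe set, both of which can match several transcripts of the gene. For Bdnf 1422169_a_at the mean was 716 ± 118.01 (SD, n = 11) with handling and 701 ± 128 (SD, n = 14) without. With columns its signal was 608 in the lowest, 734 in the median and 892 in the highest handled mouse and 449, 715 and 883 in non-handled mice. With Trizol the handled mice had 427, 717, 742 and 805 and the non-handled mice 567, 707, 722 and 824. The groups overlapped almost fully under both methods. The log2 difference was 0.04 with a 95% interval of -0.19 to 0.26 (limma adjusted p = 0.858). On the log2 scale the 4 groups were handled with columns at 9.53 ± 0.163, non-handled with Trizol at 9.45 ± 0.223, non-handled with columns at 9.42 ± 0.309 and handled with Trizol at 9.35 ± 0.417 (SD, n = 7, 4, 10 and 4), each neighbour within the SD of the next. Bdnf 1422168_a_at had a difference of 0.13 with an interval of -0.12 to 0.37 (limma adjusted p = 0.521). It was 0.22 with columns and -0.07 with Trizol.

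Sort1, the sortilin receptor, was likewise not called for handling at any of its 3 probe sets. Sort1 1423362_at stood at a median percentile of 98.3 among the probe sets of an array. With columns it was 8030 to 10166 in handled mice, with a median of 9135, and 4612 to 11835 in non-handled mice, with a median of 9177. With Trizol the handled mice had 5925, 7436, 7911 and 8563 and the non-handled mice 5777, 6192, 9918 and 10781. Handled mice spanned less than non-handled mice under both methods, a spread that was not tested. The log2 difference was 0.03, with an interval of -0.20 to 0.27 (limma adjusted p = 0.885), and the log2 means were 13.13 ± 0.142 (handled) and 13.04 ± 0.364 (non-handled) with columns, and 12.85 ± 0.228 and 12.94 ± 0.46 with Trizol (SD, n = 7, 10, 4 and 4), none of the neighbours apart by more than their SD. With arrays at the same mean and SD the difference was -0.16 (limma adjusted p = 0.426). Sort1 1450955_s_at and 1423363_at had differences of -0.04 and -0.17, which turned to 0.07 and 0.03 under that scaling, and the probes of 1450955_s_at can match transcripts of other genes.

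Ntrk3, the neurotrophin-3 receptor, was not called for handling at any of its 8 probe sets, 4 of which had positive and 4 negative differences. Of the negative ones, 1443970_at turned to 0.23 after quantile normalization and 1422329_a_at to 0.01 with arrays at the same mean and SD. Its probe set with the highest signal, 1433825_at, had a mean of 1044 ± 92.7 (SD, n = 11) with handling and 1096 ± 159 (SD, n = 14) without. Its log2 difference was -0.07, with an interval of -0.23 to 0.10 (limma adjusted p = 0.63). By log2 mean the order was non-handled with Trizol at 10.19 ± 0.264, handled with columns at 10.05 ± 0.114, non-handled with columns at 10.04 ± 0.175 and handled with Trizol at 9.98 ± 0.155 (SD, n = 4, 7, 10 and 4), with neighbours apart by less than the larger of their SDs. Ntrk3 1447723_at had the smallest handling p of the 8, with a difference of 0.39 (95% interval 0.11 to 0.66, limma adjusted p = 0.0582, two-sided exact permutation p = 0.0144). With columns its signal was 432 in the lowest, 646 in the median and 782 in the highest handled mouse and 243, 414 and 748 in non-handled mice. With Trizol the handled mice had 1345, 1393, 1412 and 2032 and the non-handled mice 1090, 1219, 1261 and 1654. The groups overlapped under both methods. It passed the adjusted test with 5 of the mice left out singly, at 0.41 to 0.44 (H123, H126, NH142, NH146 and NH167), with array weights, at 0.40 (limma adjusted p = 0.0469), among probe sets of the upper 50% of mean signal alone (limma adjusted p = 0.0475), and with arrays at the same mean and SD, at 0.45 (limma adjusted p = 0.0407). The remaining 6 probe sets had differences between -0.51 and 0.33, all with intervals that span 0.

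**Figure D4:**
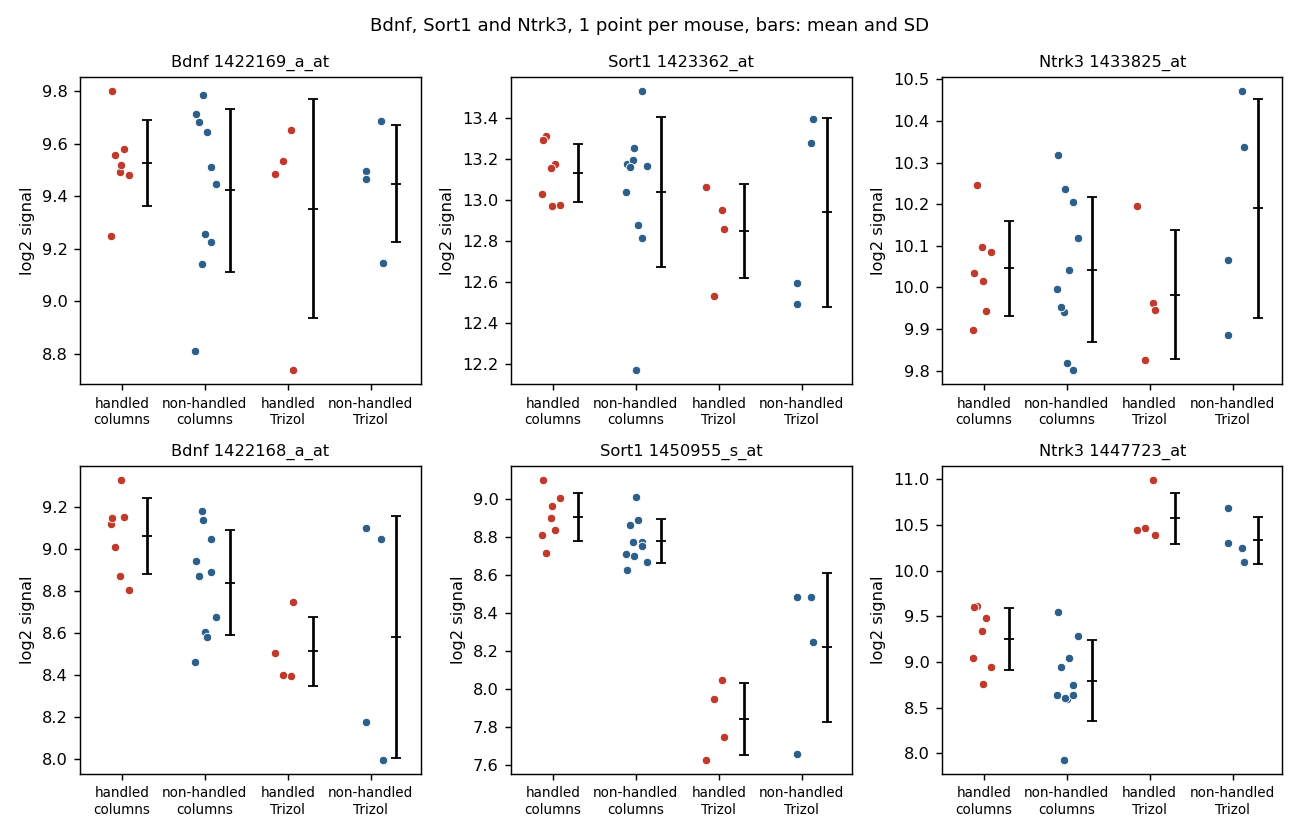
Log2 signal of 2 probe sets each of Bdnf, Sort1 and Ntrk3, 1 point per mouse in the 4 groups of handling and extraction, bars for the group mean and SD (n = 7, 10, 4 and 4; axes differ between panels and do not start at 0). Handled and non-handled mice overlap in every panel under columns, and Ntrk3 1447723_at and Sort1 1450955_s_at are separated by extraction.

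Ngfr, the p75 receptor, which in the adult forebrain is known mainly from cholinergic neurons of the basal forebrain, was at or below the nonspecific range in most mice. Ngfr 1454903_at exceeded the range in 7 of 25 mice, and 1450177_at and 1421241_at in none. Ngfr 1450177_at was 3.2 to 8.1 in handled and 5.24 to 72.8 in non-handled mice with columns. With Trizol it was 5.0, 5.67, 6.23 and 18.9 in handled and 7.57, 8.15, 10.6 and 17.4 in non-handled mice. Its difference was -1.17 (95% interval -1.99 to -0.35, limma adjusted p = 0.0541), and that of 1421241_at was -0.97 (95% interval -1.68 to -0.26, limma adjusted p = 0.0652). Both passed without the trended prior (limma adjusted p = 0.0365 and 0.0211). Ngfr 1450177_at also passed with array weights, at -1.19, and without H126, NH147, NH155 or NH167, at -1.34, -1.25, -1.24 and -1.28, and 1421241_at without H117 or NH142, at -1.10 and -1.04. After quantile normalization the differences of these 2 probe sets were -0.64 and -0.40, and that of Ngfr 1454903_at turned from -0.29 to 0.04. Other dim signal had differences of the same sign: the median difference was -0.61 over the 44 olfactory receptor probe sets, of which 5 were called, all lower, and -0.71 over 13 probe sets of Y-linked genes in these female mice. The cholinergic markers were also dim, with 0 of 5 above the nonspecific range in their median, and 1 of them, Slc5a7, the choline transporter, was called at -1.68 (SE 0.551, limma adjusted p = 0.0427), where the median signal was 6.42 with handling and 30.2 without. The part of the nonspecific signal in the Ngfr values was not tested.

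More probe sets of these genes differed by extraction than by handling. With limma, 11 of 24 probe sets (45.8%) passed for columns against Trizol, 7 higher and 4 lower with columns, where 39.8% of all probe sets did. They were 6 of Ntrk2, 2 of Ntrk3, 2 of Sort1 and 1 of Bdnf. Ntrk2 1420837_at was higher with columns by 1.74 (SE 0.201, limma adjusted p = 7.85e-09), while Ntrk2 1446712_at was lower by a log2 difference of -2.54 (SE 0.369, limma adjusted p = 6.6e-07). The latter was 12 to 201 in the mice with columns and 413 to 846 in the mice with Trizol, with no overlap. Ntrk2 1435305_at was lower with columns at -0.91, and 1420838_at, 1435196_at and 1437560_at were higher at 0.57, 0.42 and 0.33. Ntrk3 1447723_at was at -1.43 (SE 0.144, limma adjusted p = 4.63e-10) and 1455917_at at -0.97. Sort1 1423363_at was at 1.12, Sort1 1450955_s_at at 0.80 and Bdnf 1422168_a_at at 0.40. Probe sets of a single receptor gene thus differed in sign between the extraction methods, for Ntrk2 with 4 higher and 2 lower with columns. The Gapdh ratio was 1.04 to 1.71 with columns and 1.495 to 1.945 with Trizol, ranges that overlap. Its medians were higher with Trizol, at 1.76 in handled and 1.711 in non-handled mice, against 1.204 and 1.265 with columns. The Actb ratio was 1.54 to 3.24 with columns and 1.62 to 2.12 with Trizol. Its medians were 1.84 and 1.854 with Trizol, against 1.752 and 1.782 with columns. The value of 3.24 was that of a non-handled mouse, and the highest handled mouse with columns had 1.91. The methods were not compared by a test on these ratios. The part of RNA quality in these differences was not tested beyond the fit with both ratios as covariates, in which 9 of 24 passed.

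The handling difference was then compared between extraction methods. By limma's interaction term 0 of 24 probe sets passed the adjusted test, where 0.0511% of all probe sets did, and 5 of 24 (20.8%) had an unadjusted p under 0.05, where 7.47% of all did. They were Ntrk2 1458622_at and 1420837_at, Ntrk3 1425071_s_at and 1426003_at, and Sort1 1450955_s_at, all with a positive interaction, which means a more positive handling difference with columns. The smallest p was that of Ntrk3 1425071_s_at, at 0.85 (SE 0.258, limma p = 0.00235, adjusted p = 0.406), with a handling difference of 0.36 with columns and -0.49 with Trizol. Its probes, too, can match transcripts of other genes. Of the 24 probe sets, 13 had the same sign of the handling difference under both methods. With columns alone, limma called 3 of 24 (Ntrk2 1458622_at, 1435196_at and 1420837_at), where 12% of all probe sets were called. With Trizol alone limma called 0 of 24 and 0 of all 45037 probe sets, and 3 of 24 had an unadjusted p under 0.05, where 6.37% of all did.

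For no pair of probe sets named for 1 gene did a shared pattern across mice pass the adjusted test. After subtracting the mean of each of the 4 groups, the median Pearson correlation over the 63 pairs of probe sets of the same gene was -0.0017 (n = 25 mice), and 0.0767 without the subtraction. By gene the median was 0.188 for the pair of Bdnf, -0.129 for 28 pairs of Ntrk2, 0.0878 for 28 pairs of Ntrk3, -0.0423 for 3 pairs of Ngfr and 0.227 for 3 pairs of Sort1. In a two-sided permutation test 0 of 63 pairs passed an adjusted p of 0.05. The pairs include dim probe sets, in which little shared variation can be seen. Between probe sets above the nonspecific range in all mice, r was -0.03 to 0.48 for Ntrk3, mostly positive, and -0.25 to 0.58 for Ntrk2. The highest correlation was that of Ntrk2 1458622_at with 1435305_at, with r = 0.577 (permutation p = 0.00398, adjusted p = 0.251), rho = 0.588, and r = 0.47 without the 2 mice farthest from the median. Ntrk2 1435196_at and 1420837_at, the pair called in opposite directions, had r = -0.31.

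**Figure D5:**
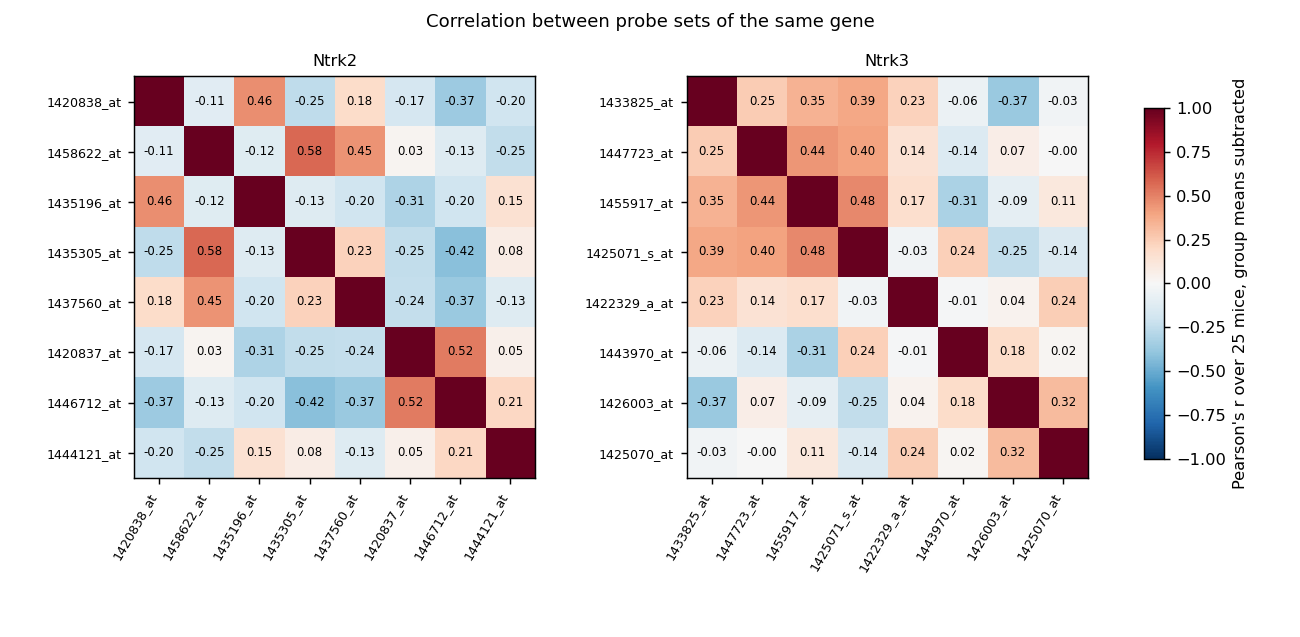
Pearson's r between the 8 probe sets of Ntrk2 and between the 8 of Ntrk3 over 25 mice, after subtracting group means, in order of mean log2 signal. Colors and printed values give r; none of these pairs passed the adjusted test, and r ranges from -0.417 to 0.577 within Ntrk2.

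Genes with the most similar pattern across mice were listed for the brightest probe set of each gene, as a description over 25 mice and 19562 candidate probe sets that share the arrays and their scaling. For Ntrk2 1420838_at they were Prpsap1 (r = 0.773), Zdhhc22 (r = 0.755) and Mrps18a (r = 0.739). For Ntrk3 1433825_at they were Kidins220 (r = 0.855), Map4 (r = 0.829) and Spon1 (r = 0.82). For Sort1 1423362_at they were Wars (r = 0.966), Bcat1 (r = 0.937) and Syt11 (r = 0.936). For Bdnf 1422169_a_at they were Snapc1 (r = 0.758), Jade3 (r = 0.742) and Add3 (r = 0.741), and for the dim Ngfr 1454903_at Rad51d (r = 0.724), Ube2w (r = 0.701) and BC052040 (r = 0.699). Kidins220, a membrane scaffold known as a substrate of Trk receptor signaling, kept r = 0.807 with Ntrk3 without the 2 mice farthest from the median, and Wars, a tRNA ligase, kept r = 0.937 with Sort1.

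The wider pathway was read from 8 lists, of whose genes 121 had a named probe set. At the brightest probe set of each gene, 10 of 121 were higher and 12 lower in handled mice by limma. Of all 18193 genes, 4.47% were higher and 9.7% lower. The median difference was -0.0034 over the 121 genes and -0.12 over all genes. These 2 medians differ in signal level, since most of the pathway genes lay above the nonspecific range. Over all probe sets the median was -0.02 in the upper 50% of mean signal and -0.42 in the lower 50%. After quantile normalization 6 were higher and 8 lower, and with arrays at the same mean and SD 4 were higher and 13 lower. All 22 called genes kept their sign under both scalings, and 13 and 11 of them kept the call. Of the 22 called genes, 20 had the same sign under both extraction methods.

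Among 12 genes for ligands and their processing, Serpini1, neuroserpin, an inhibitor of tissue plasminogen activator, rose by 0.32 (SE 0.0802, limma adjusted p = 0.00859), and the list median was -0.21. Among 14 coreceptors and sortilin family members, Sorcs3, a sorting receptor of the sortilin family, rose by 0.68 (SE 0.176, limma adjusted p = 0.0117). It was 1.02 with columns and -0.03 with Trizol. Lingo1, a partner of p75 in the Nogo receptor complex, fell by 0.36. Among 11 adaptors of p75, Mapk9, the kinase JNK2, rose by 0.53, at 0.79 with columns and -0.01 with Trizol. Of the probe sets, 1 of 3 was called for Serpini1, 1 of 2 for Sorcs3, 1 of 2 for Lingo1 and 1 of 3 for Mapk9.

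Downstream of Trk, 3 of 26 genes of the adaptors and the Ras-MAPK branch were higher and 2 lower. Of all genes, 4.47% were higher and 9.7% lower. The kinase Braf and the Ras exchange factor Sos1 rose by 0.32 and 0.37 at their brightest probe sets. Of the probe sets, 1 of 9 was called for Braf and 1 of 5 for Sos1. Sos1 was at 0.51 with columns and 0.07 with Trizol. The adaptor Frs3 fell by 0.73 (SE 0.129, limma adjusted p = 0.000371), and the adaptor Sh2b1 fell by 0.56. Both were lower in handled mice under each extraction method, and 1 of 2 probe sets of Sh2b1 was called. In the PI3K-Akt-mTOR branch 1 of 18 genes was higher and 6 lower, beside the same shares of all genes. The counts were not compared with these shares by a test. Rptor, the mTORC1 subunit raptor, fell by 0.50 (SE 0.0923, limma adjusted p = 0.000585), Pik3r2, a regulatory subunit of PI3K, by 0.43, Irs2, an insulin receptor substrate, by 0.58, and Eif4ebp2, a repressor of translation, by 0.48. Of the probe sets, 1 of 3 was called for Rptor and 1 of 5 for Eif4ebp2. Eif4ebp2 was at -0.67 with columns and -0.08 with Trizol. The list median of this branch was 0.0029.

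In the PLC gamma and calcium branch 1 of 11 genes was higher and 3 lower, where 4.47% of all genes were higher and 9.7% lower. The nuclear kinase Camk4 rose by 0.28, while Prkca, protein kinase C alpha, fell by 0.23, Camk2a, the synaptic calcium-dependent kinase, by 0.24 and Plcg2, a phospholipase C gamma, by 0.50. The limma adjusted p-values of these were 0.0393 to 0.04998. Of the probe sets, 1 of 5 was called for Camk4, 1 of 3 for Prkca and 1 of 6 for Camk2a. Prkca was at -0.33 with columns and -0.03 with Trizol. Of 18 genes that respond to BDNF or to neuronal activity limma called 0, with 1 of 18 at an unadjusted p under 0.05, where 31.6% of all genes were, and their median was -0.13. Among 13 regulators of Bdnf transcription, Mef2a, a transcription factor driven by activity, rose by 0.28 at its brightest probe set. Of the 6 probe sets of Mef2a, 1 was called higher and 1 lower, so the gene has no single direction. Hdac2, a histone deacetylase, rose by 0.23 at its brightest probe set, with 1 of 3 probe sets called. The median of the list was 0.14.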

How the data were processed

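CA1 RNA of 25 mice was amplified in a double round and hybridized in parallel to 1 Affymetrix Mouse430_2 array each. The authors made the deposited intensity values from these arrays with MAS 5.0 in Affymetrix Expression Console 1.1, a linear signal without distribution normalization. Low signal is therefore noisy on the log scale, and differences of dim probe sets depend on array scaling. Extraction was read from the label text, which names positions in the list of samples. Probe sets were named from the platform annotation (34958 with 1 gene, 932 with several, 9211 with none), with 34754 symbols updated through the gene identifier.

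Log2 signal of 45037 probe sets (64 controls left out) was fitted with limma 3.58.1 in R 4.3.3 (lmFit, eBayes with trend), with handling and extraction as terms, two-sided, at a Benjamini-Hochberg adjusted p under 0.05. The script was tested on simulated data. Exact permutation used all 1361360 reassignments of handling within extraction, and correlations 100000 permutations within groups, with Python 3.11.15 and scipy 1.17.1. Precision was computed from the number of mice, not from the smaller number of litters. For lists the brightest probe set stood for each of 18193 genes. Named were all probe sets of the member genes, per list at most 4 called genes by smallest p, and per member the 3 genes with the highest correlation. Members and lists were chosen with earlier results of these data known. Alternatives were quantile normalization, arrays at the same mean and SD, an offset of 50, the upper 50% of mean signal, no trend, no extraction term, array weights, RNA quality covariates, each extraction method alone, other percentiles of nonspecific signal, every probe set of a listed gene, and each mouse left out. The correlations without the 2 farthest mice of the most similar genes were added after seeing the data.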

Additional observations from a re-analysis of the deposited data

Results flagged for a closer look

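In 96 groups of mice, each probe set in each of the 4 groups of handling and extraction, 8 values in 7 mice lay far from the rest of their group by Dixon's criterion at 95%, which chance meets in about 1 in 20 groups. Ntrk2 1435305_at was 2037 in handled mouse H109, with the other handled mice with columns at 878 to 1119, and 2399 in NH142, with the other non-handled mice with columns at 842 to 1451. Ntrk2 1420837_at was 848 in H110, below the 965 to 1058 of the other handled mice with columns. Ntrk3 1447723_at was 2032 in H113 and 1345 to 1412 in the other handled mice with Trizol. In H116, Ntrk3 1425071_s_at was 519 against 364 to 398 and Ntrk3 1425070_at was 52.2 against 10.2 to 17.6 in the other handled mice with columns. Ngfr 1450177_at was 18.9 in H126 against 5.0 to 6.23 in the other handled mice with Trizol. Sort1 1423362_at was 4612 in NH162 against 7199 to 11835 in the other non-handled mice with columns.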

How the results depend on the processing

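Of the 24 probe sets, 2 were called for handling with all mice and both terms. The count was 0 with Trizol alone, 1 without the extraction term, and 4 with array weights, without the trended prior or with arrays at the same mean and SD; it was 2 to 5 with each mouse left out, reaching 5 without H126 and 4 without H117, NH142, NH147 or NH167. Ntrk2 1435196_at kept its direction and its call under every alternative but Trizol alone, and Ntrk2 1420837_at under every alternative but Trizol alone and the fit without the extraction term. The count for extraction was 8 to 13 under the alternatives and 10 to 11 with each mouse left out, and the count for the interaction by limma was 0 throughout. The 22 called pathway genes became 0 with Trizol alone (8 of 121 at an unadjusted p under 0.05), 8 without the extraction term, 14 after quantile normalization and 41 with every probe set of a listed gene, and 14 to 27 with each mouse left out, the lowest without H109. The probe sets above the nonspecific range in all mice were 15 at the 90th and 12 at the 99th percentile. Neither called Ntrk2 probe set changed sign under any alternative; of the 22 called pathway genes, Sorcs3 and Mapk9 changed sign with Trizol alone, to -0.03 and -0.01. The cause of these changes was not tested. With 4 mice per group the Trizol comparison had little precision. For Ngfr, the dimmer Ntrk3 probe sets and, with Trizol, Ntrk2 1420837_at, the signal over background limits what can be read. No paired analysis was made, since handled and non-handled mice came from different litters and the labels name no pairs.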
